A study of Mus musculus with 6 samples.

Results

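Endocrine pancreas hormone genes and the transcription factors of their lineage were followed in the embryonic mouse spleen at E13.5. The set of 9 genes holds the hormone genes Gcg, Ins1, Ins2 and Iapp and the factor genes Neurog3, Pdx1, Nkx6-1, Isl1 and Neurod1. Of these, 8 had a probe set that carried their symbol and no other, 1 probe set each, and all 8 passed the filter on low values described below, among 18710 genes measured in all. No probe set used here carried the symbol of Ins1, so it has no value. The groups were 3 Tlx1 homozygous and 3 Tlx1 heterozygous samples, each of total RNA on 1 Affymetrix array. Every group therefore carried at least 1 altered Tlx1 allele if homozygous is read as homozygous for that allele. Which allele, strain and sex the embryos had is not in the labels used here. Nor do they say whether a sample was 1 embryo or a pool, so the spread behind each p-value is that among these arrays and could be technical.

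The pancreas grows as an epithelium out of the foregut beside the mesenchyme that gives rise to the spleen. Within that epithelium a brief pulse of the bHLH factor NEUROG3 turns progenitors into endocrine cells. These cells switch on NEUROD1, ISL1 and other factors and then the hormones, with glucagon cells the first to appear in the mouse embryo. PDX1 marks the pancreatic epithelium as a whole and later beta cells, and NKX6-1 marks progenitors and later beta cells. None of the hormones is a product of spleen cells as far as is generally known, and ISL1 and NEUROD1 are also used by neurons.

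Values are deposited intensities, not logged, and the median probe set of an array read 106.4 to 110.5 units. Probe sets at 15 units or more on at least 3 arrays passed the filter on low values. Tlx1 itself read 171, 209 and 200 units on homozygous arrays 1, 2 and 3, against 825, 706 and 719 on heterozygous arrays 1, 2 and 3, a log2 fold change of −1.95 ± 0.09 (SE; limma adjusted p = 1.30e-05). Whether its probe set lies in the altered stretch of the gene is not known here. Of a spleen mesenchyme list of 12 genes, 10 were measured, and the lowest reading of any on any array was 93.0 units, with no detection call to set it against. Log2 fold changes are homozygous minus heterozygous on the log2(intensity + 1) scale, and a gene was called at a Benjamini-Hochberg adjusted p below 0.05 over all genes tested. The value after ± is an SE beside a fold change and an SD beside a mean. Y-linked genes differed within the heterozygous group, Eif2s3y reading 417, 391 and 392 units on homozygous arrays 1, 2 and 3, against 600, 398 and 735 on heterozygous arrays 1, 2 and 3. With their mean as a covariate, Isl1 and Nkx6-1 were called as without it. In whole tissue, a change in the number of cells of a type and a change in RNA per cell cannot be told apart.

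Gcg and Iapp placed the 6 arrays in the same order, although Iapp hardly differed between heterozygous arrays 1 and 2 (20.6 and 21.5 units). The promoter windows of these hormone genes are shown for the motifs known to be bound by factors of the set. Each window runs from 250 bases before the gene's start to 50 bases after it, on the gene's strand, in RefSeq's GRCm38.p6. Capitals mark the homeodomain core TAAT on either strand, as bound by PDX1, NKX6-1 and ISL1, and the E-box CANNTG, as bound by NEUROG3 and NEUROD1 with their partners, which reads alike on both strands.
Gcg, chr2:62483604-62483903, minus strand: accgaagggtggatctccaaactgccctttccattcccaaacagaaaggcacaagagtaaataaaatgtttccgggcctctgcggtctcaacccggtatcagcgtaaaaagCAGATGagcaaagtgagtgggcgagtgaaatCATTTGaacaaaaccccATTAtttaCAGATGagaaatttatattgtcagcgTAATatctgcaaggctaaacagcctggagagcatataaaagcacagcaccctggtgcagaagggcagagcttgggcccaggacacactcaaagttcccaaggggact
Iapp, chr6:142298175-142298474, plus strand: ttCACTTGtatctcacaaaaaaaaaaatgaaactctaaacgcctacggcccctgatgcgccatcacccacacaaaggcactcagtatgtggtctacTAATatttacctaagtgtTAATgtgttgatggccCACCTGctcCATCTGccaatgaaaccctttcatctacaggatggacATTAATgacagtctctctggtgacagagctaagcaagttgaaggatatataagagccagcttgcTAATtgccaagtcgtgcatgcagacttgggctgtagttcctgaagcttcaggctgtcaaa
The Gcg window held 2 TAAT cores and 3 E-boxes, and the Iapp window 5 TAAT cores, 2 of which overlap each other, and 3 E-boxes. Among 32851 promoter windows of the same length, 34.1% held at least 2 TAAT cores, 6.86% at least 5 and 17.6% at least 3 E-boxes. The matches are letters only and were not tested as binding sites. Of the 9 genes, 8 had a window in the table.

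Of the 8 measured genes, 2 rose in homozygous spleens, Isl1 and Nkx6-1, and none fell in limma, while 17.0% of all genes were called, 10.4% higher and 6.56% lower. At an unadjusted p below 0.05 there were 5 of the 8, all higher, against 34.1% of all genes. The groups did not overlap for these 2 genes and overlapped for the other 6, and 38.3% of all genes had groups that did not overlap. The estimate lay above 0 for 7 of the 8, as for 53.6% of all genes. The median log2 fold change was 0.44, against 0.02 over all genes. All 8 genes read highest on homozygous array 1, the array on which 19.3% of all genes were highest. The count of called genes depended on single arrays. It was 5 without homozygous array 2 and 1 without homozygous array 1, homozygous array 3, heterozygous array 2 or heterozygous array 3.

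**Figure D1:**
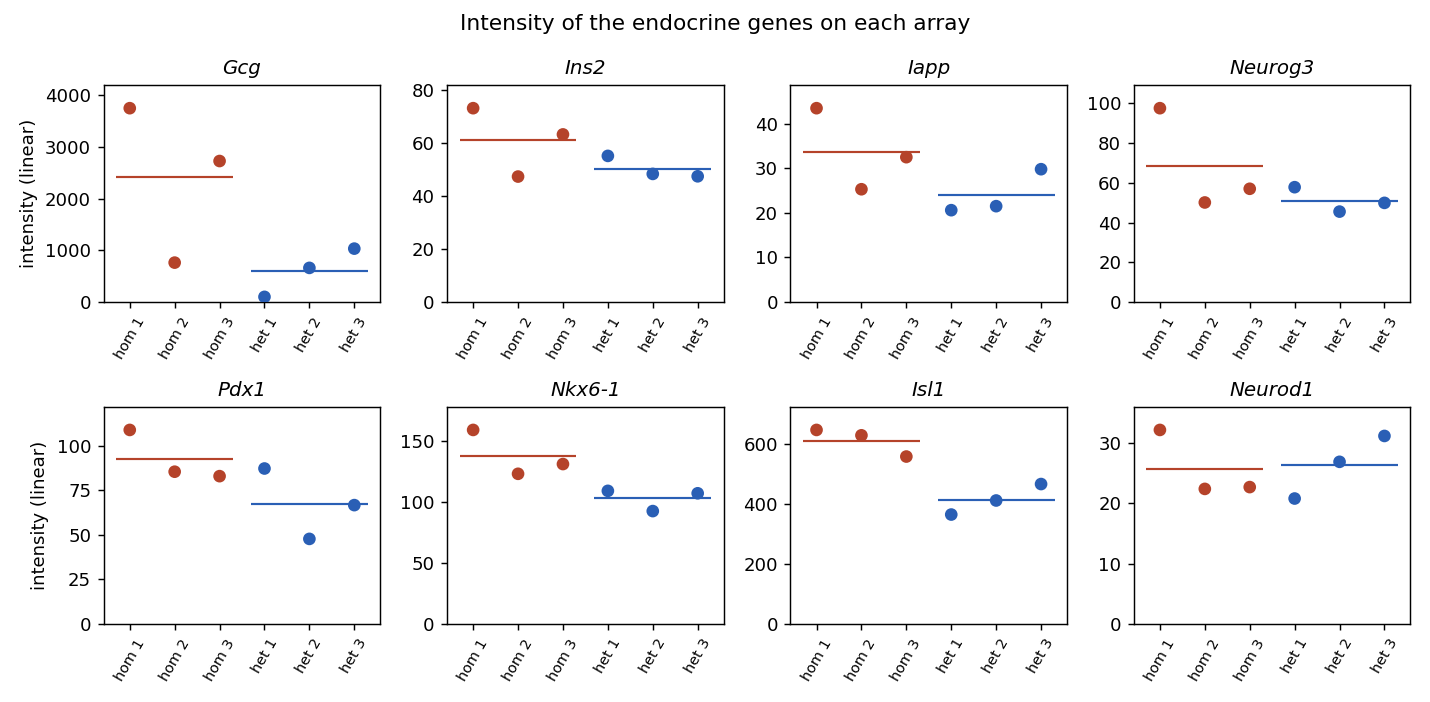
Deposited intensity (linear scale, own axis from 0 for each gene) of the 8 measured endocrine genes on each array, with homozygous arrays in red, heterozygous arrays in blue and lines at the group means. Gcg ranged from 98.0 to 3751 units, Isl1 and Nkx6-1 are the genes whose groups do not overlap, and homozygous array 1 is the highest array in every panel.

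Gcg, which encodes proglucagon, the precursor of glucagon and of the glucagon-like peptides, varied more than any other gene. It read 3751, 761 and 2728 units on homozygous arrays 1, 2 and 3, against 98.0, 659 and 1032 on heterozygous arrays 1, 2 and 3. Homozygous arrays 1 and 3 stood above all others, but homozygous array 2 lay below heterozygous array 3, so the groups overlapped. The means were 2413 ± 1520 in homozygous and 596 ± 470 in heterozygous spleens (SD, n = 3 each), a ratio of 4.05. Within a group, the brightest array exceeded the dimmest by 4.93-fold among homozygous and 10.5-fold among heterozygous samples. A log2 fold change of 2.28 ± 0.85 did not pass in limma (adjusted p = 0.0986), and the exact permutation test over arrays gave p = 0.20, where 0.10 is the smallest two-sided value that 3 against 3 allows. Without homozygous array 2 the estimate was 2.97 (limma adjusted p = 0.0486), and without heterozygous array 1 it was 1.26 (limma adjusted p = 0.197). A variance trend in the fit gave an adjusted p = 0.0419, and the trend with a robust fit an adjusted p = 0.273.

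The within-group SD of Gcg was 1.53 on the log2 scale, rank 1 among 18710 genes, where the median gene had 0.09. Ranks 2 and 3 were Cltrn (1.19) and Ttr (0.84), both described below, and rank 5 was Slc38a5 (0.82). Rank 4, Serpina1c, a liver-type protease inhibitor gene chosen after its values were seen, had 0.82. Of the 8 endocrine genes, 6 lay above the 97th percentile of this spread. Neurog3 had an SD of 0.38 (rank 44), Pdx1 0.34 (rank 72), Iapp 0.33 (rank 84), Neurod1 0.29 (rank 189) and Ins2 0.24 (rank 483). Nkx6-1 (0.16) and Isl1 (0.15), the genes that were called, were the least variable of the set.

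**Figure D2:**
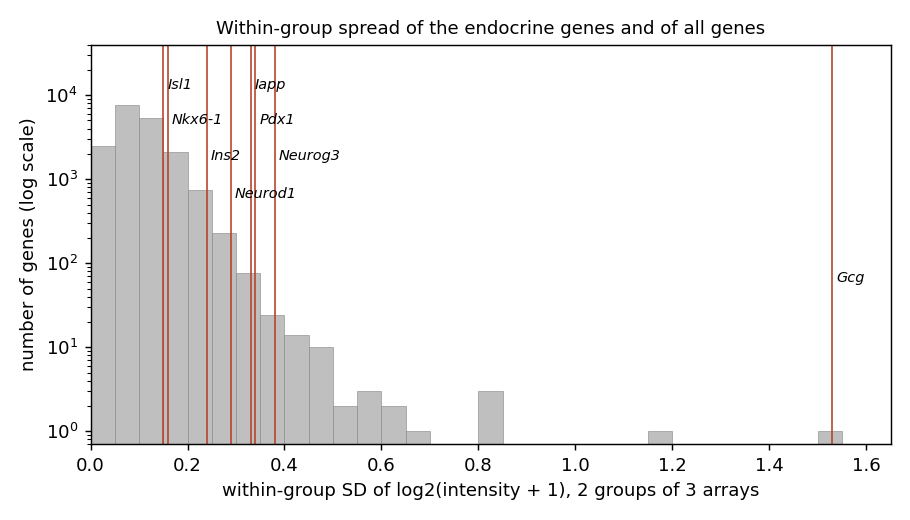
Number of genes (log scale) by the within-group SD of log2(intensity + 1), pooled over 2 groups of 3 arrays, with red lines at the 8 endocrine genes. Gcg, at 1.53, stands at the far right of all 18710 genes, and Isl1 (0.15) and Nkx6-1 (0.16) are nearest to the median of 0.09.

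The other hormone genes were dim. Iapp, which encodes the amylin peptide that beta cells release with insulin, read 43.5, 25.3 and 32.5 units on homozygous arrays 1, 2 and 3, against 20.6, 21.5 and 29.8 on heterozygous arrays 1, 2 and 3. It ordered the arrays as Gcg did, with homozygous array 2 again below heterozygous array 3. Its log2 fold change was 0.46 ± 0.19 (limma adjusted p = 0.130). The estimate passed without homozygous array 2 (0.65, limma adjusted p = 0.0412) and with array weights (0.64, adjusted p = 0.0413).

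Ins2, 1 of the mouse's insulin genes, read 73.1, 47.3 and 63.2 units on homozygous arrays 1, 2 and 3, against 55.1, 48.3 and 47.4 on heterozygous arrays 1, 2 and 3. Homozygous array 2 was the dimmest of all 6, and the groups overlapped. Ins2 had a log2 fold change of 0.26 ± 0.14 (limma adjusted p = 0.237), and without homozygous array 2 it was 0.43 (limma adjusted p = 0.0237). Ins1 is a near-identical copy, and whether this probe set tells the 2 transcripts apart is not known here, so the value may hold both.

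Neurog3, the factor that commits pancreatic progenitors to the endocrine fate, read 97.6, 50.1 and 57.0 units on homozygous arrays 1, 2 and 3, against 57.8, 45.5 and 49.9 on heterozygous arrays 1, 2 and 3. Homozygous array 1 alone stood apart, at 1.95 times the dimmest homozygous array, and the other 5 arrays lay between 45.5 and 57.8. Its log2 fold change of 0.36 ± 0.22 did not pass in limma (adjusted p = 0.279) and was 0.07 without homozygous array 1. Its 95% interval, unadjusted, ran from −0.13 to 0.85.

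Pdx1, the homeobox factor without which no pancreas forms, read 109, 85.5 and 83.0 units on homozygous arrays 1, 2 and 3, against 87.3, 47.7 and 66.7 on heterozygous arrays 1, 2 and 3. Heterozygous array 1 lay within the range of the homozygous arrays, and heterozygous array 2 was the dimmest. Gcg, by contrast, was dimmest on heterozygous array 1. The log2 fold change of Pdx1 was 0.49 ± 0.20 (limma adjusted p = 0.122). It passed without heterozygous array 1 (0.69, limma adjusted p = 0.0386), with the replicate number as a block (0.49, adjusted p = 0.0230) and with the mean of the Y-linked genes added to the fit (0.84, adjusted p = 0.0355).

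Nkx6-1, a homeobox factor of pancreatic progenitors and beta cells, rose. It read 159, 123 and 131 units on homozygous arrays 1, 2 and 3, against 109, 92.4 and 107 on heterozygous arrays 1, 2 and 3. All homozygous arrays lay above all heterozygous arrays, with means of 138 ± 19.1 and 103 ± 8.91 (SD, n = 3 each). The log2 fold change was 0.42 ± 0.11 (limma adjusted p = 0.0314), and the exact permutation test gave its smallest value, p = 0.10. The call was narrow. It was lost in every refit without 1 array except that without homozygous array 2, with estimates of 0.31 to 0.50 and adjusted p-values up to 0.0995 over the 6 refits, and after quantile normalization (0.37, adjusted p = 0.0555) and cyclic loess (0.34, adjusted p = 0.0552).

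Isl1, a LIM homeobox factor of all islet cell types that is also made by neurons and by mesenchyme around the developing pancreas, rose. It read 648, 630 and 559 units on homozygous arrays 1, 2 and 3, against 365, 412 and 467 on heterozygous arrays 1, 2 and 3. The groups were well apart, with means of 612 ± 47.1 and 415 ± 50.7 (SD, n = 3 each), a ratio of 1.48. It was higher by 0.56 ± 0.10 on the log2 scale (limma adjusted p = 0.00872, exact permutation p = 0.10). Its call held in all 6 refits without 1 array (0.48 to 0.65) and in every other alternative but the epithelial covariate given below. Isl1 and Gcg did not share their order of arrays: homozygous array 2, low for Gcg, was the second highest for Isl1.

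Neurod1, the bHLH factor that follows NEUROG3 in endocrine cells and acts in neurons, did not pass the test. It read 32.2, 22.4 and 22.7 units on homozygous arrays 1, 2 and 3, against 20.8, 26.9 and 31.2 on heterozygous arrays 1, 2 and 3. The ranges of both groups covered each other almost fully. The log2 fold change was −0.03 ± 0.17 (limma adjusted p = 0.916), with an unadjusted 95% interval of −0.41 to 0.35. A change of either sign within these bounds remains compatible with the data.

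**Figure D3:**
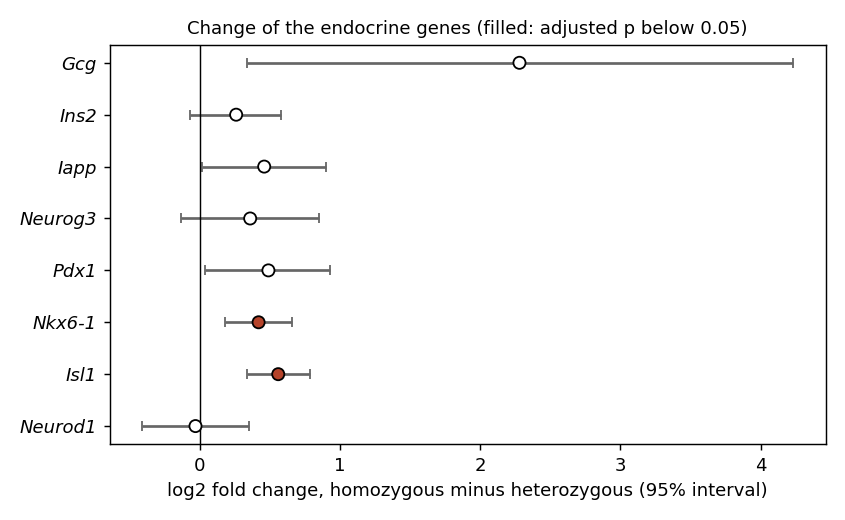
Log2 fold change, homozygous minus heterozygous, of the 8 measured endocrine genes with unadjusted 95% intervals from limma, filled where the adjusted p was below 0.05. Gcg has the highest estimate (2.28) and the widest interval (0.34 to 4.23), while only the smaller changes of Isl1 (0.56) and Nkx6-1 (0.42) were called.

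The genes whose profile over the 6 arrays lay nearest to that of an endocrine gene were sought for the 4 genes that spanned at least 1 log2 unit, Gcg, Iapp, Neurog3 and Pdx1. Nearness was the root mean square distance between log2 profiles after each gene's mean was taken off. With 18710 genes and 6 arrays close matches are common, so these are descriptions. Nearest to Gcg were Cltrn (distance 0.66), which encodes the membrane protein collectrin, known from kidney and beta cells, Slc38a5 (0.98), an amino acid transporter gene known from pancreas, and Ttr (0.99), a carrier of thyroid hormone and of retinol-binding protein made by liver and by glucagon cells. Cltrn read 226, 36.9 and 148 units on homozygous arrays 1, 2 and 3, against 18.1, 59.8 and 65.6 on heterozygous arrays 1, 2 and 3. Slc38a5 read 1428, 336 and 628 units on homozygous arrays 1, 2 and 3, against 206, 305 and 413 on heterozygous arrays 1, 2 and 3. Both were highest on homozygous array 1 and lowest on heterozygous array 1, like Gcg, a match built into their choice by nearness. Gcg spanned 5.24 log2 units, so only genes of wide spread could come near it. Neither passed the test (adjusted p = 0.188 for Cltrn and 0.110 for Slc38a5 in limma).

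Nearest to Iapp were Pde6h, Ptprn2 and Hapln4 (distance 0.10 each). Ptprn2 encodes a phosphatase-like protein of hormone granules, Pde6h a subunit of the cone phosphodiesterase and Hapln4 a hyaluronan link protein. Nearest to Neurog3 were AF366264 and Rfx6 (distance 0.10 each), and Tbc1d21 (0.12). Rfx6 encodes a factor of endocrine cells downstream of NEUROG3. Rfx6 read 48.8, 28.2 and 32.6 units on homozygous arrays 1, 2 and 3, against 31.9, 27.5 and 24.6 on heterozygous arrays 1, 2 and 3. As for Neurog3, homozygous array 1 stood above the rest, which the choice by nearness builds in. Nearest to Pdx1 were the amino acid transporter gene Slc6a19 (0.09), Gm16551 (0.10) and Kynu (0.12), which encodes an enzyme of tryptophan breakdown. All 3 were lowest on heterozygous array 2, again a match built in by the choice.

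**Figure D4:**
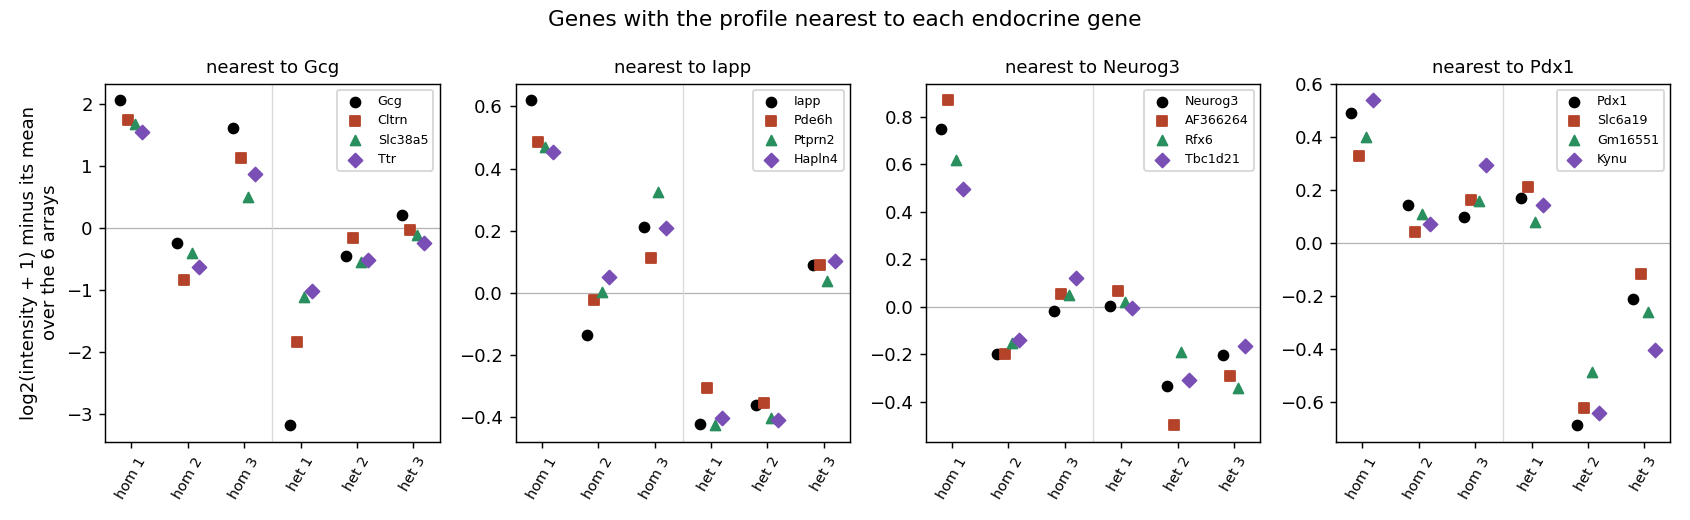
Log2(intensity + 1) minus each gene's mean over the 6 arrays for Gcg, Iapp, Neurog3 and Pdx1 (black) and the 3 genes nearest to each, by array, with homozygous arrays on the left of each panel. The Gcg panel is lowest on heterozygous array 1 and the Pdx1 panel on heterozygous array 2, while homozygous array 1 is highest in all panels. Likeness within a panel is built in by the choice of the nearest genes.

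Other islet hormone and granule genes were mostly above 0 without passing. Of 21 measured, 3 rose and none fell, beside the 10.4% and 6.56% of all genes. The median log2 fold change was 0.28, and 0.20 after cyclic loess. The risers were Ptprn (0.53 ± 0.10, limma adjusted p = 0.0118) and Ptprn2 (0.53 ± 0.15, limma adjusted p = 0.0441), both of granule membranes, and the incretin gene Gip (0.38 ± 0.10, limma adjusted p = 0.0297). Pyy, a peptide hormone gene of gut and islets, read 422, 148 and 268 units on homozygous arrays 1, 2 and 3, against 101, 135 and 164 on heterozygous arrays 1, 2 and 3 (limma adjusted p = 0.0800). Chga, a granule protein gene, read 144, 71.2 and 123 units on homozygous arrays 1, 2 and 3, against 65.8, 81.2 and 96.7 on heterozygous arrays 1, 2 and 3 (limma adjusted p = 0.248). Sst, for somatostatin (0.29, limma adjusted p = 0.0568), and Ppy, for pancreatic polypeptide (0.22, limma adjusted p = 0.0968), did not pass either. Pyy, Chga, Sst and Ppy were chosen after their values were seen. Of the 21 genes, 13 were highest on homozygous array 1, 19 had homozygous array 2 as the lowest homozygous array, and 12 had heterozygous array 1 as the lowest heterozygous array, against 19.3%, 42.1% and 31.6% of all genes. The count of rises was 10 without homozygous array 2, 7 without heterozygous array 3, and 1 without homozygous array 1, homozygous array 3 or heterozygous array 2. With all arrays kept it was 10 with array weights, 7 with a pseudocount of 16 and 7 with the replicate number as a block. A variance trend gave 6, and the trend with a robust fit 5. The count was 2 after quantile normalization and 1 after cyclic loess. Ptprn held its call in all these fits. With the epithelial covariate given below, 0 genes of this list were called, Ptprn included.

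Other endocrine lineage factors moved both ways. Of 24 measured, 8 rose and 3 fell, beside 10.4% higher and 6.56% lower over all genes. The median was 0.31, and 0.19 after cyclic loess. Onecut1, a factor upstream of Neurog3, rose by 0.57 ± 0.09, and the homeobox genes Lmx1b and Isl2, better known from neurons, by 0.49 each. Hhex, needed for the ventral pancreas and for somatostatin cells and also used by endothelium and blood, was at −0.46 ± 0.06 (limma adjusted p = 0.00268). Mnx1 (0.45, limma adjusted p = 0.0174), Irx2 (0.41, limma adjusted p = 0.0152) and the beta cell factor gene Mafa (0.34, limma adjusted p = 0.0487) rose as well. Other endocrine factor genes did not pass in limma, with Nkx2-2 at 0.42 (limma adjusted p = 0.0788), Rfx6 at 0.34 (0.215), Pax6 at 0.34 (0.150), Insm1 at 0.29 (0.127) and Pax4 at 0.14 (0.229). Mnx1, Irx2, Mafa, Nkx2-2, Pax6, Insm1 and Pax4 were chosen after their values were seen. There were 3 rises without homozygous array 1, 5 without homozygous array 3 and 4 without heterozygous array 1 or 2. There was 1 fall without homozygous array 1, heterozygous array 1 or heterozygous array 3.

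Genes of beta cell glucose sensing and secretion rose for 7 of 14 measured, and none fell. Over all genes 10.4% were called higher and 6.56% lower. The median of the list was 0.27, and 0.23 after cyclic loess. The rises included the gap junction gene Gjd2 (0.67 ± 0.12) and the fatty acid receptor gene Ffar1 (0.55 ± 0.07). Others were the glucose transporter gene Slc2a2 (0.47 ± 0.10) and the incretin receptor gene Glp1r (0.34 ± 0.09, limma adjusted p = 0.0334). Gjd2 read 44.9, 33.1 and 41.1 units on homozygous arrays 1, 2 and 3, against 22.0, 23.6 and 28.1 on heterozygous arrays 1, 2 and 3, with groups apart. Several of these genes also serve neurons. The count was 2 without heterozygous array 2, 3 without homozygous array 1 or 3 and 4 without heterozygous array 1, and Slc2a2 was among the calls lost without heterozygous array 2. Glp1r lost its call in 7 of 18 alternatives other than the epithelial covariate, among them quantile normalization, cyclic loess and the refits without homozygous array 1 or 3 or heterozygous array 1 or 2.

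A list of receptors for islet hormones, which also held related receptors, accessory proteins and signalling adaptors, had 5 rises and 1 fall among 23 measured. Over all genes 10.4% were called higher and 6.56% lower. The median of the list was 0.19, and 0.08 after cyclic loess. Glp1r, counted above among the beta cell genes, was among the 5 rises too. Insrr, an insulin receptor relative, rose by 0.58 ± 0.09, Gipr by 0.51 ± 0.09 and the somatostatin receptor gene Sstr1 by 0.50 ± 0.09. Npy1r, a neuropeptide Y receptor gene, was at −0.47 ± 0.11 (limma adjusted p = 0.0216) and lost its call without homozygous array 1, heterozygous array 1 or heterozygous array 2. A second gene of this list was called lower without homozygous array 2 or 3. The receptor of glucagon itself, Gcgr, read 71.0, 66.4 and 69.1 units on homozygous arrays 1, 2 and 3, against 69.4, 63.8 and 65.9 on heterozygous arrays 1, 2 and 3. The insulin receptor gene Insr had a log2 fold change of −0.04 ± 0.06 (limma adjusted p = 0.677). Neither receptor passed, and both were chosen after their values were seen.

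Markers of neighbouring tissues moved in the same samples. Of 23 epithelium markers, 8 rose and none fell, beside 10.4% higher and 6.56% lower over all genes. Their median was 0.30, and 0.25 after cyclic loess. Their summed intensity was 5842 to 6436 in homozygous and 4689 to 5706 in heterozygous samples. No marker was near 0, the lowest value being 30.2 units. Epcam (0.42), Cldn6 (0.88), Cldn3 (0.61) and Spint1 (0.47) were among the rises. Of 23 exocrine pancreas genes, 6 rose and 1 fell, beside the same shares of all genes. The median was 0.27, and 0.14 after cyclic loess. Sums were 3176 to 3590 in homozygous and 1572 to 2411 in heterozygous samples. The lowest value was 14.0 units. The rises included the digestive enzyme gene Cpa1 (1.77 ± 0.30), Sycn (0.42) and Rbpjl (0.35), and Cpb1 was the fall (−0.35). Cpa1 made up a large part of the exocrine sums, at 1600 to 1783 units in homozygous and 307 to 861 in heterozygous samples. Without homozygous array 1, 1 epithelium marker and 1 exocrine gene rose. Without heterozygous array 2, 1 epithelium marker and 2 exocrine genes rose, and without homozygous array 3, 2 of each. The exocrine fall was lost without heterozygous array 1 or 2. After cyclic loess, 5 epithelium markers, 1 exocrine gene and 1 other islet hormone or granule gene rose.

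Of 16 measured genes of pancreatic progenitors and ducts, 7 rose and 2 fell, beside 10.4% higher and 6.56% lower over all genes. The median was 0.33, and 0.20 after cyclic loess. Of the rises, Cpa1 and Rbpjl were also counted on the exocrine list and Onecut1 among the lineage factors. Gata4 rose by 0.61 ± 0.11, while Sox9 (−0.76 ± 0.08) and the Notch target gene Hes1 (−0.61 ± 0.10) were lower. All of these, Gata4 included, are also used outside the pancreas. Without homozygous array 1, heterozygous array 1 or heterozygous array 2, 4 genes of this list rose. Of 23 markers of enteric and peripheral neurons, 10 rose and none fell, beside the same shares of all genes. The median was 0.28, and 0.19 after cyclic loess. Sums were 6101 to 6639 in homozygous and 4255 to 4387 in heterozygous samples. Hand2, among the rises, is also on the spleen mesenchyme list below. Stmn2 (0.81), Gap43 (0.75), Dcx (0.70) and Nefm (0.57) led these rises. Gap43 made up a large part of the neuron sums, at 2769 to 3014 units in homozygous and 1664 to 1761 in heterozygous samples. The lowest value of the neuron list was 18.1 units. The part of neurons in the rise of Isl1 was not tested.

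Islet hormone and granule genes and exocrine genes did not have the same lowest heterozygous array. Among the heterozygous arrays, array 1 was the lowest for 12 of 21 other islet hormone and granule genes but for 2 of 23 exocrine genes and 1 of 23 epithelium markers. Array 2 was the lowest for 14 of the 23 exocrine genes and 15 of the 23 epithelium markers, and for 37.1% of all genes. The other endocrine lists were mixed. Array 2 was the lowest for 13 and array 1 for 7 of 24 other lineage factors, and array 2 for 7 and array 1 for 6 of 14 beta cell genes. Among the 23 genes of the receptor list, array 1 was the lowest for 11 and array 2 for 8. Over all genes, array 1 was the lowest for 31.6%. Gcg, Iapp, Isl1 and Neurod1 were lowest on heterozygous array 1, Neurog3, Pdx1 and Nkx6-1 on heterozygous array 2, and Ins2 on heterozygous array 3. Pnliprp1, a pancreatic lipase relative chosen after its values were seen, read 162, 145 and 135 units on homozygous arrays 1, 2 and 3, against 160, 41.4 and 70.9 on heterozygous arrays 1, 2 and 3. Heterozygous array 1, with the least Gcg, thus held as much Pnliprp1 as a homozygous array. The exocrine list as a whole did not reach a homozygous level on that array. Its sum there was 2411, against 3176 to 3590 on homozygous arrays and 1572 and 1784 on heterozygous arrays 2 and 3. Cpa1, a large part of that sum, read 861 units there, against 1600 to 1783 on homozygous arrays. The difference between lists in their lowest heterozygous array was noticed in the data and has no test.

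**Figure D5:**
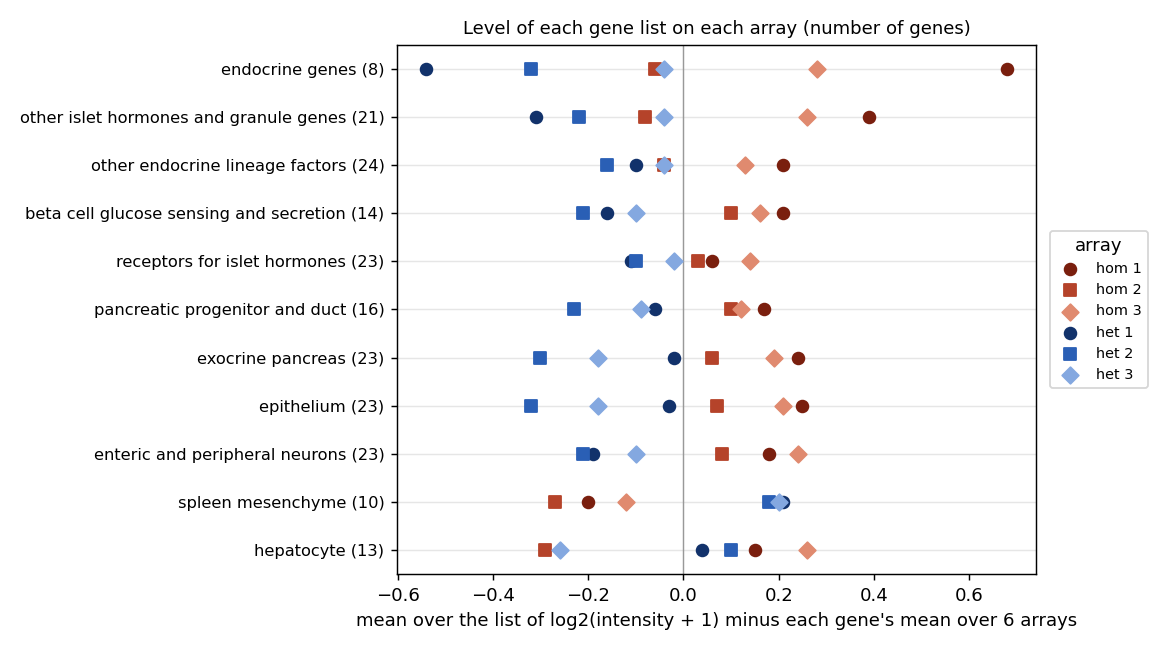
Mean over each gene list of log2(intensity + 1) minus the gene's own mean over the 6 arrays, by array (homozygous arrays in red shades, heterozygous arrays in blue shades), with the number of genes in each list. The 8 endocrine genes run from 0.68 on homozygous array 1 to −0.54 on heterozygous array 1, a low point that rests on Gcg, since the other 7 genes average −0.16 there and −0.31 on heterozygous array 2, where epithelium (−0.32) and exocrine genes (−0.30) are also lowest.

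Liver secretory genes served as a check on another neighbouring tissue. None of 13 rose or fell in limma, beside 10.4% higher and 6.56% lower over all genes. At an unadjusted p below 0.05 there were 3, all higher, against 34.1% of all genes. The median was 0.07. Without homozygous array 2, 2 were called higher, without heterozygous array 1 or 2, 1 higher, and without heterozygous array 3, 1 lower. The members nearest the threshold were Ambp (0.76, limma adjusted p = 0.0671) and Apoh (0.26, limma adjusted p = 0.108). Within-group SDs were large for some of the 13, at 0.84 for Ttr, 0.64 for Alb and 0.44 for Ambp. Changes of these genes could thus be missed, and Alb stood at −0.50 ± 0.36. Alb read 323, 231 and 583 units on homozygous arrays 1, 2 and 3, against 620, 652 and 306 on heterozygous arrays 1, 2 and 3, an order unlike that of Gcg, and was chosen after its values were seen. Ttr, which is on this list and on the hormone list, read 1134, 250 and 712 units on homozygous arrays 1, 2 and 3, against 191, 271 and 328 on heterozygous arrays 1, 2 and 3. Its highest and lowest arrays were those of Gcg, but Ttr was named above for its nearness to Gcg, so this match was built in. The spleen mesenchyme list went the other way, with 5 falls and 1 rise among 10 measured, beside the same shares of all genes. Its median was −0.13. Nkx2-5 (−1.36) and Nkx3-2 (−1.23) fell beside Tlx1, and Hand2 rose by 0.56. Without homozygous array 1 there were 3 falls, and without homozygous array 2 or heterozygous array 3 there were 2 rises.

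With the mean level of the epithelium markers as a covariate, none of the 8 endocrine genes was called in limma, and neither were most other genes, with 19 higher and 61 lower in all. That covariate was itself higher on all homozygous than on all heterozygous arrays, so it and the genotype can hardly be told apart in 6 arrays. The estimate of Gcg was then 3.23 ± 1.70 (adjusted p = 0.606) and that of Isl1 0.73 ± 0.20 (adjusted p = 0.248), no smaller than without the covariate. Nkx6-1 was at 0.05 ± 0.17 and Iapp at 0.13 ± 0.37. Pdx1 (−0.37 ± 0.21), Neurog3 (−0.37 ± 0.33) and Ins2 (−0.24 ± 0.22) changed sign.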

How the data were processed

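Total RNA of 3 Tlx1 homozygous and 3 Tlx1 heterozygous E13.5 spleen samples was put on 1 array each. The authors deposited 1 intensity per probe set and array. GCRMA is the tool listed per the submitters' processing notes, and no version or build was found in the labels. The deposited intensities are linear, so log2(intensity + 1) was taken, and the added 1 pulls changes of dim genes toward 0. Of 35512 probe sets, 21789 carried 1 gene symbol in the platform annotation and were used, 1621 several and 12102 none. Those at a log2 value of at least 4 on at least 3 arrays were kept, and the brightest per gene by mean gave 18710 genes.

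Homozygous minus heterozygous was fitted over all genes with limma 3.58.1 in R 4.3.3 (lmFit, eBayes, no covariate), two-sided, with Benjamini-Hochberg adjustment, and the fit was tested on simulated data. Alternatives were other filters, pseudocounts, probe set choices, scalings, variance models, array weights, covariates, the replicate number as a block and leaving out each array. The genes, lists and tests were chosen with earlier results of these data known. Some lists share genes, so their counts are not separate. By rule, the text names up to 4 called genes of each list by size of change (2 by smallest p where none was called) and the 3 nearest profiles. Any other gene is marked as picked after its values were seen, apart from the endocrine genes themselves and the checks Tlx1 and Eif2s3y. The number of arrays limits the precision.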

Additional observations from a re-analysis of the deposited data

How the results depend on the processing

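The number of endocrine genes called higher was 2. It was 1 after quantile normalization and 1 after cyclic loess, 0 with the epithelial level as a covariate, and 1 to 5 over the 6 refits without 1 array, and none was called lower under any alternative run. Over all genes, 1951 were called higher and 1227 lower. Quantile normalization gave 1206 higher, cyclic loess 1107 higher and 1131 lower (49.5% of calls higher, against 61.4%), the covariate from Y-linked genes 1140 and 507, and the epithelial covariate 19 and 61. Over the refits without 1 array there were 699 to 2319 higher and 499 to 1244 lower, and fewer samples enter those fits. Sign changes were few outside the epithelial covariate. Neurod1, at −0.03, was at 0.11 with array weights, 0.04 with the Y-linked covariate, 0.05 with the epithelial covariate, 0.06 without homozygous array 2, 0.05 without homozygous array 3 and 0.10 without heterozygous array 3. With the epithelial covariate Ins2 was at −0.24, Neurog3 at −0.37, Pdx1 at −0.37, Cldn6 at −0.24, Spint1 at −0.03, Ambp at −0.38, AF366264 at −0.50, Rfx6 at −0.20, Tbc1d21 at −0.26, Slc6a19 at −0.48, Gm16551 at −0.16 and Kynu at −0.29. The cause of these changes was not tested. Same-numbered samples of the groups showed no shared deviation over all genes (correlations of −0.01, 0.04 and −0.11). With 3 arrays per group this cannot exclude a pairing, and the labels do not say whether the numbers pair the samples. With the replicate number as a block 2091 genes were called higher and 1072 lower and 3 endocrine genes higher, Pdx1 being the third (0.49, limma adjusted p = 0.0230). With all arrays kept, epithelium rises numbered 5 (cyclic loess) to 14 (array weights) against 8, exocrine rises 1 (cyclic loess) to 8 against 6, and rises among other lineage factors 5 (quantile, cyclic loess) to 12 (array weights) against 8, apart from the epithelial covariate, which gave 0 for each. The mean of the endocrine genes without Gcg was added after seeing the data. Intensities near the floor of 15, as for Iapp and Neurod1, limit what can be read from small differences. Some called genes were dim too: Gjd2, Ffar1, Gip and Sycn read below the median probe set on every array.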
